A study of Mus musculus with 10 samples.

Results

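Glycolysis, the pentose phosphate pathway and the response to low oxygen were followed through 34 genes in mature B cells sorted from mouse bone marrow. The genes are a named list of enzymes, regulators and hypoxia-response genes, and their rows were found by matching Ensembl gene identifiers to GRCm38 symbols. All 34 were among the 14450 genes of the table. The series compares 5 libraries of Chat+ mature B cells with 5 libraries of Chat- mature B cells, all from steady-state Chat-GFP mice, in which green fluorescence reports use of the Chat locus. Chat encodes choline acetyltransferase, which makes acetylcholine. Both groups carry the reporter and were sorted by FACS; the labels name the groups by Chat status and do not give the gate. Nothing in the labels tells if each library stands for its own animal, so p-values measure the spread between these libraries, which may be technical. They give no age, sex or genetic background of the mice.

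Glycolysis splits glucose into pyruvate through a chain of cytosolic enzymes, and lactate dehydrogenase turns pyruvate into lactate when it is not burned in mitochondria. The pentose phosphate pathway branches off after the first glycolytic step and yields NADPH and ribose for nucleotides. In low oxygen the prolyl hydroxylases stop marking HIF-1 alpha for destruction, and HIF-1 then switches on most glycolytic genes together with genes for mitophagy, collagen modification and the oxygen sensors themselves. Bone marrow is a tissue of low oxygen, and resting B cells raise glycolysis when they are activated and divide.

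Values are in CPM, counts per 1000000 counts over the listed genes of a library, and a value after ± is the SD over the 5 libraries of a group (n = 5) unless it is named as an SE. The estimated depth was 24480000 to 29040000 reads in Chat+ libraries and 21520000 to 30050000 reads in Chat- libraries. Chat itself had 31.1 to 111 CPM in Chat+ libraries, against 1.17 to 19.7 CPM in Chat- libraries, in the direction of the labels. The B cell markers (10 of 10 listed, among them Ms4a1, Cd79a and Pax5) summed to 16910 to 20410 CPM in Chat+ cells, against 17980 to 18920 CPM in Chat- cells, so the labelled cell type was present in every library. One library stood apart. In Chat- replicate 4, 11.9% of the summed CPM came from mitochondrially encoded genes, where the other 9 libraries had 2.27% to 3.85%, and 1213 listed genes were at the lowest value, against 62 to 682 elsewhere. Its monocyte and macrophage markers (12 of 13 listed) summed to 238 CPM, against 56.0 to 117 CPM in the others, and its stromal and endothelial markers (12 of 13 listed) to 579.8 CPM, against 289 to 426 CPM. Pecam1, with a mean of 253 CPM in each group, was the largest part of the stromal and endothelial sums. Erythroid markers summed to 565 to 932 CPM in Chat+ libraries, against 488 to 1143 CPM in Chat- libraries. For neutrophil markers it was 23.1 to 144 CPM, against 47.2 to 121 CPM, and for plasma cell markers 407 to 683 CPM, against 353 to 430 CPM. Of 10 T and NK cell markers, 9 were not listed, and Cd4 had at most 1.27 CPM. Because Chat- replicate 4 stood apart, log2 fold changes are also given without it.

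Every step of glycolysis was represented by at least 1 well expressed gene. Per kilobase of coding transcript, which allows genes to be compared, the highest level over the 10 libraries was that of Gapdh (glyceraldehyde-3-phosphate dehydrogenase) at 406 CPM per kb. Pkm, the pyruvate kinase gene, had 351 CPM per kb, Aldoa (aldolase A) 316, Eno1 (enolase) 298 and Gpi1 (glucose-6-phosphate isomerase) 257 CPM per kb. Ldha followed with 187 and the pentose phosphate genes Taldo1 and Tkt with 129 and 70.0 CPM per kb. Lower down lay Tpi1 (triosephosphate isomerase) at 55.8, Hk1 (hexokinase 1) at 51.1, Pgk1 at 50.8 and Pgam1 (phosphoglycerate mutase) at 49.3 CPM per kb. Each of these 4 neighbours varied more across Chat+ libraries than their levels differ, so their order among themselves is not settled. The lengths are means over annotated coding transcripts, some of them short. With the longest transcript the level of Hk1 was 14.9 CPM per kb, 3.44-fold less, and Gapdh, Aldoa and Eno1 led in that order.

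For 4 steps, 1 or 2 of the related member genes held most of the level. Hk1 held 95.2% ± 2.14 of the per-length level of the 2 hexokinase genes in Chat+ and 96.1% ± 0.679 in Chat-. Pfkl and Pfkp, the liver and platelet types of phosphofructokinase, shared that step almost evenly, with Pfkl at 49.9% ± 5.87 in Chat+ and 48.0% ± 7.17 in Chat-, and Pfkm, the muscle type, held 2.74% ± 0.375 in Chat+ and 2.15% ± 0.648 in Chat-. Aldoa held 98.4% ± 0.197 of the aldolase level in Chat+ and 98.9% ± 0.386 in Chat-. Ldha, the form that favours lactate production, held 99.4% ± 0.196 of lactate dehydrogenase in Chat+ and 98.8% ± 1.38 in Chat-. Of the 2 prolyl hydroxylase genes among the members, Egln1 and Egln3, Egln1 held at least 93.6% in each library. This share leaves out Egln2, a prolyl hydroxylase gene outside the members. Egln2 had 111 ± 40.6 CPM in Chat+ cells and 115 ± 43.4 CPM in Chat- cells, against 43.1 and 41.6 CPM for Egln1.

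**Figure D1:**
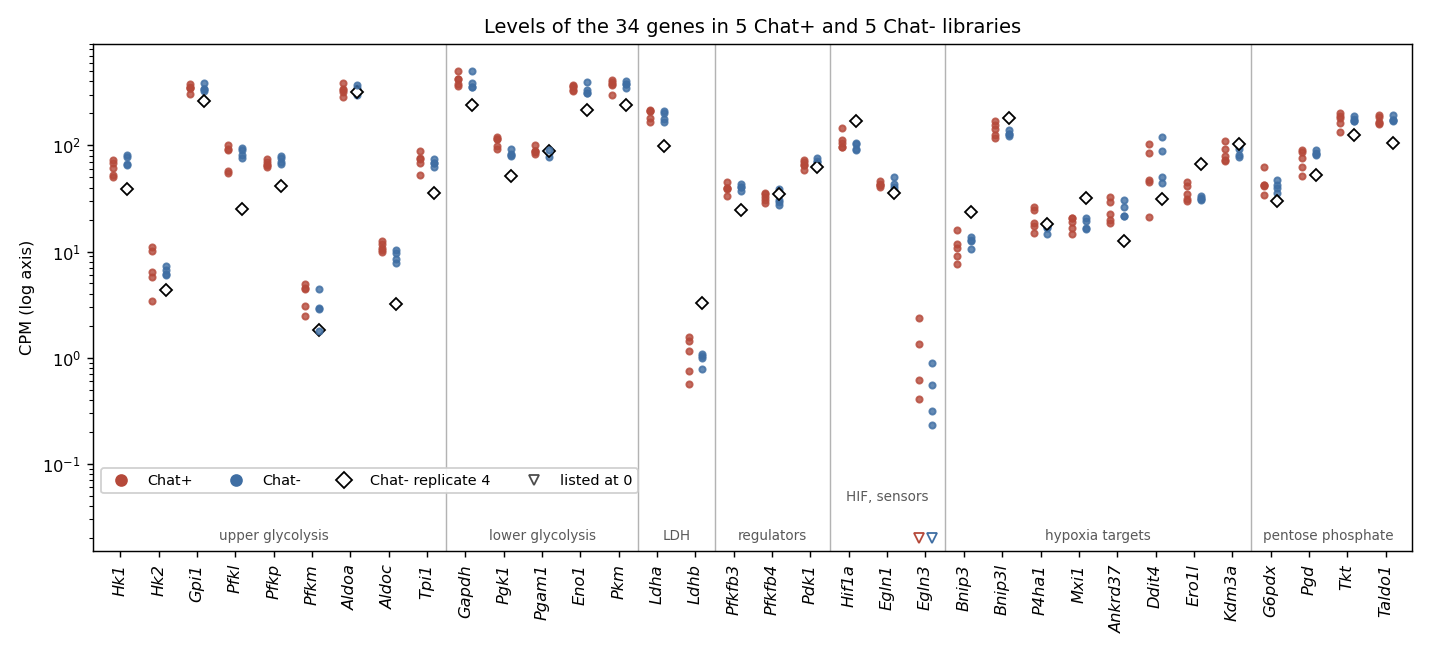
CPM (log axis) of the 34 genes in each library, with 5 Chat+ libraries (red) left of 5 Chat- libraries (blue), grouped by role. The open diamond is Chat- replicate 4, and triangles mark the 2 libraries in which Egln3 was listed at 0. The groups overlap for each gene.

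The question of the comparison is whether Chat+ B cells differ from Chat- B cells in these pathways. No member passed the threshold. With limma and Benjamini-Hochberg adjustment over all listed genes, 0 of 34 members had an adjusted p under 0.05, where 0.00692% of all listed genes did (1 gene). At an unadjusted p under 0.05 there was 1 member, Pgk1, where 4.51% of listed genes reached it. The groups overlapped for all 34 members. In these bulk libraries, fewer cells of a type and less RNA per cell cannot be told apart. Full separation was found for 1.12% of listed genes with Chat+ above and for 0.304% with Chat+ below.

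By sign alone, 24 of 34 members were higher in Chat+ and 10 were lower, where 57% of listed genes were higher. The median log2 fold change of the members was 0.07, against 0.04 over all listed genes. Without Chat- replicate 4 the split was 19 higher and 15 lower, where 49.6% of listed genes were higher, and the median was 0.03 (all listed genes, -0.00). In that comparison 0 members passed the adjusted threshold, which 0.0415% of listed genes passed, and Pgk1 was again the 1 member at an unadjusted p under 0.05 (7.32% of listed genes). The groups still overlapped for all 34 members, where 2.35% of listed genes lay wholly above and 0.941% wholly below in Chat+.

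The precision of these comparisons differed by gene. The 95% confidence interval of the fold change lay within 1.5-fold in either direction for 20 members and within 2-fold for 29 of 34. Among the narrowest were those of Aldoa (fold 0.99, interval 0.85 to 1.16) and Pgam1 (fold 1.04, interval 0.91 to 1.19). Differences of 2-fold or more were thus outside the interval for most members, while smaller ones often were not.

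**Figure D2:**
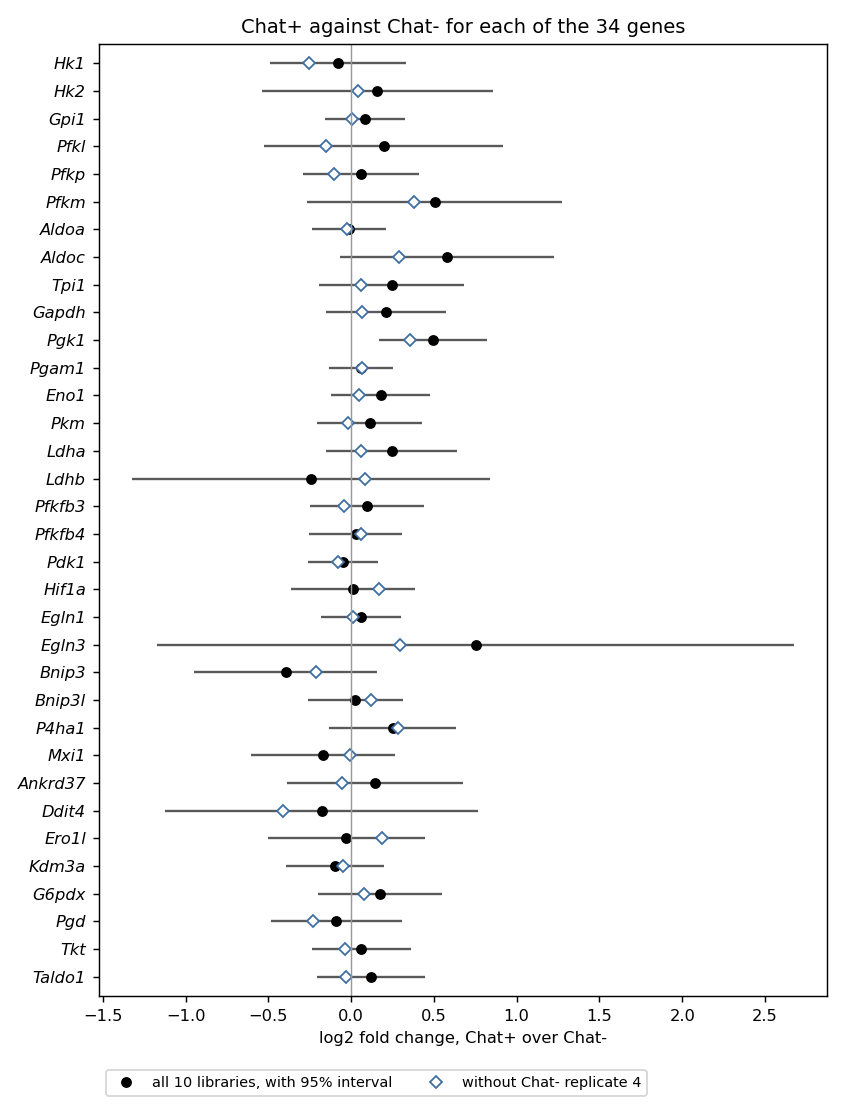
Log2 fold change of Chat+ over Chat- for each gene (black points) with its 95% confidence interval (bars), and the same value without Chat- replicate 4 (open diamonds). The interval of Pgk1 alone lies clear of 0, and the diamonds of most glycolytic enzymes lie closer to 0 than the points.

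Pgk1 had the smallest p of the 34 genes, though it did not pass. It encodes phosphoglycerate kinase, the first ATP-yielding enzyme of glycolysis (ENSMUSG00000062070, chromosome X at 106187100 to 106203699, plus strand, GRCm38). Its levels were 115, 120.1, 99.6, 91.5 and 114 CPM in Chat+ replicates 1 to 5, against 93.2, 82.8, 79.1, 51.5 and 81.6 CPM in Chat- replicates 1 to 5. The groups overlapped in a single pair, since Chat+ replicate 4 lay just below Chat- replicate 1. Means were 108 ± 11.9 CPM in Chat+ cells, against 77.7 ± 15.6 CPM in Chat- cells, with a log2 fold change of 0.49 ± 0.15 (SE), and the adjusted p over all listed genes was 0.69 (limma). Without Chat- replicate 4 the Chat- mean was 84.2 ± 6.22 CPM (SD, n = 4) and the log2 fold change 0.35 (limma adjusted p = 0.29). The near-identical copy Pgk1-rs7 and 5 other genes share 54.7% of the 31-base words of Pgk1 transcripts, so the origin of some of its reads is uncertain.

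The early steps of glycolysis, which spend ATP to trap and split glucose, showed no member that passed. Hk1, the hexokinase of most resting cells, had 61.2, 68.7, 50.7, 72.7 and 52.6 CPM in Chat+ libraries, against 65.5, 77.8, 66.9, 39.0 and 80.4 CPM in Chat- libraries. It was lower in Chat+ by sign (log2 fold change -0.08), and more so without Chat- replicate 4 (-0.26, limma adjusted p = 0.72). Hk2, the inducible hexokinase, had 5.76, 10.1, 3.46, 6.36 and 10.9 CPM in Chat+ libraries, against 6.74, 6.001, 7.33, 4.37 and 6.19 CPM in Chat- libraries. Its Chat+ values varied 3.16-fold among themselves and enclosed all Chat- values (log2 fold change 0.16, and 0.04 without Chat- replicate 4).

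Pfkl (ENSMUSG00000020277, chromosome 10 at 77986947 to 78010083, minus strand) catalyses the committed step together with Pfkp and Pfkm. It had 90.2, 101, 57.2, 92.8 and 54.5 CPM in Chat+ libraries, against 80.9, 93.6, 90.9, 25.2 and 76.7 CPM in Chat- libraries. Chat- replicate 4 was far below all others, and the log2 fold change of 0.20 became -0.15 without it. Pfkp had 67.5 ± 4.84 CPM in Chat+ cells, against 66.3 ± 14.9 CPM in Chat- cells, with a log2 fold change of 0.06 that was -0.10 without Chat- replicate 4. Pfkm had 3.90 ± 1.08 CPM in Chat+ cells, against 2.78 ± 1.10 CPM in Chat- cells, a log2 fold change of 0.50 ± 0.35 (SE) on a low level, and of 0.38 without Chat- replicate 4.

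Gpi1, which turns glucose-6-phosphate into fructose-6-phosphate, had 347 ± 28.1 CPM in Chat+ cells, against 329 ± 44.1 CPM in Chat- cells (log2 fold change 0.08, and 0.003 without Chat- replicate 4). Aldoa, which splits the sugar, had 329.6 ± 36.4 CPM in Chat+ cells, against 332 ± 29.4 CPM in Chat- cells (log2 fold change -0.01, and -0.03 without Chat- replicate 4). These abundant enzymes differed by less than their spread. Tpi1 had 72.3 ± 13.5 CPM in Chat+ cells, against 62.0 ± 15.1 CPM in Chat- cells, with a log2 fold change of 0.24, and of 0.06 without Chat- replicate 4.

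Aldoc, the brain type of aldolase and a minor form here, had the next smallest p among the glycolytic enzymes (0.074, adjusted p = 0.999 with limma). Its levels were 9.96, 10.9, 11.8, 10.4 and 12.5 CPM in Chat+ libraries, against 9.58, 7.79, 8.56, 3.21 and 10.4 CPM in Chat- libraries. The Chat+ libraries were evenly high, and Chat- replicate 5 reached into their range. The log2 fold change was 0.58 ± 0.30 (SE) with all libraries and 0.29 without Chat- replicate 4.

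In the later steps, which harvest ATP, all 5 enzymes were higher in Chat+ by sign, with log2 fold changes of 0.06 to 0.49, and 4 of 5 without Chat- replicate 4. Gapdh had 382, 424, 363, 418 and 500.0 CPM in Chat+ libraries, against 355, 386, 355, 241 and 504 CPM in Chat- libraries. The libraries numbered 5 were the highest of their group in both, and the log2 fold change was 0.21 with all libraries and 0.07 without Chat- replicate 4. Eno1 had 349 ± 19.1 CPM in Chat+ cells, against 313 ± 63.5 CPM in Chat- cells, with a log2 fold change of 0.18 that was 0.05 without Chat- replicate 4. Pkm had 373 ± 43.9 CPM in Chat+ cells, against 349 ± 64.9 CPM in Chat- cells, with a log2 fold change of 0.11 that was -0.02 without Chat- replicate 4. Pgam1 was the steadiest enzyme of these steps, with 82.9 to 99.8 CPM in Chat+ cells, against 77.8 to 89.6 CPM in Chat- cells (log2 fold change 0.06, and 0.07 without Chat- replicate 4). The part of the transcript shared with any other gene, counted in 31-base words, was 27.2% for Gapdh, 28.5% for Eno1, 34.7% for Pkm and 37.1% for Pgam1. Among further members it was 33.0% for Ldhb, 23.7% for Bnip3l, 20.3% for Bnip3 and 19.6% for Ldha. The reads of these genes too may be split. Eno1b, which shares the most words with Eno1, had 11.4 to 99.97 CPM in Chat+ libraries, against 33.4 to 68.8 CPM in Chat- libraries. Its highest Chat- value was in replicate 4, where Eno1 was lowest (215 CPM). Its highest Chat+ value was in replicate 5, where Eno1 was not low (364 CPM). A split of reads between Eno1 and Eno1b was not tested.

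Ldha makes lactate (ENSMUSG00000063229, chromosome 7 at 46841475 to 46855627, plus strand). It had 216, 212, 165, 182.5 and 209 CPM in Chat+ libraries, against 199.7, 176, 167, 99.0 and 212 CPM in Chat- libraries. Apart from Chat- replicate 4 both groups filled the same range, and the log2 fold change was 0.24 with that library and 0.06 without it. Ldhb, the heart form, was near the limit of the table, with 0.562 to 1.58 CPM in Chat+ cells, against 0.778 to 3.25 CPM in Chat- cells. Its highest value was that of Chat- replicate 4, and its log2 fold change of -0.24 turned to 0.09 without it.

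The regulators of glycolysis were close in both groups. Pfkfb3 and Pfkfb4 make the sugar phosphate that activates phosphofructokinase, and Pdk1 blocks the entry of pyruvate into mitochondria. Pfkfb3 had 39.3 ± 4.22 CPM in Chat+ cells, against 37.3 ± 7.33 CPM in Chat- cells, a log2 fold change of 0.10 that was -0.05 without Chat- replicate 4. Pfkfb4 had 32.4 ± 2.95 CPM in Chat+ cells, against 31.9 ± 4.51 CPM in Chat- cells (log2 fold change 0.03, and 0.06 without Chat- replicate 4). Pdk1 had 66.2 ± 4.90 CPM in Chat+ cells, against 68.5 ± 5.66 CPM in Chat- cells (log2 fold change -0.05, and -0.08 without Chat- replicate 4). All 3 differences were smaller than the spread within a group.

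The ratio of 2 related genes within a library hardly depends on how the library was scaled, and 7 such pairs were compared between the groups. None passed an exact two-sided permutation test with Benjamini-Hochberg adjustment over the 7 pairs, in which the smallest unadjusted p was 0.024 (Aldoc over Aldoa, adjusted p = 0.17). The log2 ratio of Aldoc to Aldoa was -4.88 ± 0.17 in Chat+ and -5.47 ± 0.65 in Chat-, a difference of 0.59 with all libraries and 0.32 without Chat- replicate 4. Bnip3 over Bnip3l was lower in Chat+ by sign, at -3.71 ± 0.41 in Chat+ and -3.29 ± 0.23 in Chat- (exact permutation, unadjusted p = 0.079, adjusted p = 0.28). The other 5 pairs had adjusted p of 0.69 to 0.86 (exact permutation), and Ldhb over Ldha and Pfkp over Pfkl were highest in Chat- replicate 4.

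**Figure D3:**
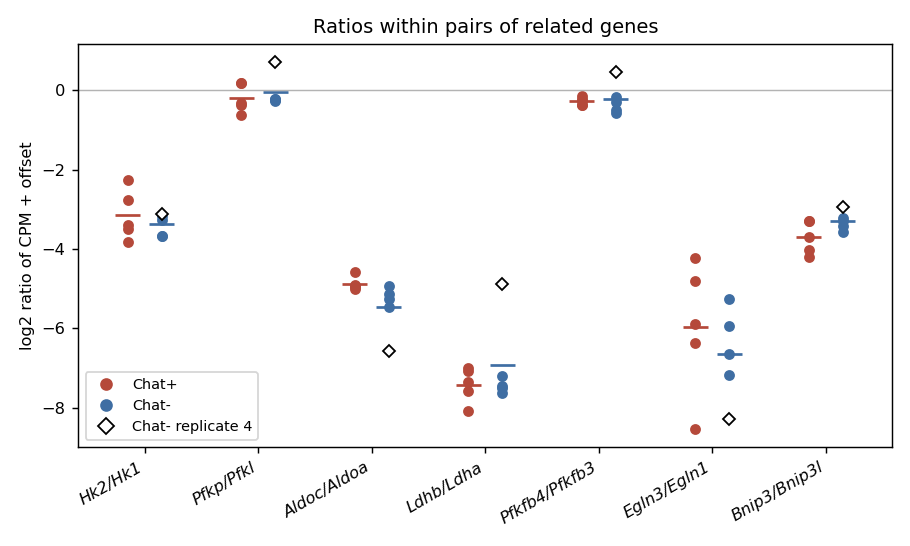
Log2 ratio of CPM plus the table's offset for 7 pairs of related genes, in Chat+ libraries (red, left of each pair) and Chat- libraries (blue, right). Horizontal bars are group means and the open diamond is Chat- replicate 4, which lies outside the range of the other Chat- libraries for all 7 pairs.

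Among the genes that sense oxygen, Hif1a encodes the oxygen-labile subunit of HIF-1 (ENSMUSG00000021109, chromosome 12 at 73901375 to 73947530, plus strand). It had 95.7, 105, 112.5, 97.2 and 145 CPM in Chat+ libraries, against 90.6, 102.5, 93.0, 168 and 104.5 CPM in Chat- libraries. Chat- replicate 4 and Chat+ replicate 5 were the highest, and the log2 fold change was 0.01 with all libraries and 0.17 without Chat- replicate 4 (limma adjusted p = 0.85). HIF-1 alpha is controlled largely at the protein level, which these data do not show. Egln1, a prolyl hydroxylase, had 43.1 ± 2.02 CPM in Chat+ cells, against 41.6 ± 5.48 CPM in Chat- cells (log2 fold change 0.06, and 0.01 without Chat- replicate 4). Egln3, a hydroxylase that is itself a HIF target, had 0.613, 1.34, 0, 0.408 and 2.36 CPM in Chat+ libraries, against 0.552, 0.892, 0.317, 0 and 0.233 CPM in Chat- libraries. It was listed at 0 in 1 library of each group and the groups overlapped, with a log2 fold change of 0.75 ± 0.89 (SE) that was 0.29 without Chat- replicate 4.

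The other hypoxia targets showed no common direction, with 3 of 8 higher and 5 lower in Chat+ by sign. Bnip3 and Bnip3l encode receptors for the removal of mitochondria. Bnip3 (ENSMUSG00000078566, chromosome 7 at 138890836 to 138909519, minus strand) had 7.57, 11.8, 15.8, 10.7 and 9.03 CPM in Chat+ libraries, against 10.7, 12.5, 13.6, 23.3 and 12.8 CPM in Chat- libraries. The highest library was again Chat- replicate 4, and the log2 fold change was -0.40 ± 0.25 (SE; limma adjusted p = 0.999) with it and -0.21 without it. Bnip3l had 142 ± 21.2 CPM in Chat+ cells, against 139 ± 23.5 CPM in Chat- cells (log2 fold change 0.03, and 0.12 without Chat- replicate 4).

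Ddit4, an inhibitor of mTORC1 that responds to hypoxia and other stress, was the most variable of the well expressed members. It had 45.6, 84.6, 47.4, 103 and 21.3 CPM in Chat+ libraries, against 44.4, 89.3, 119.9, 31.03 and 50.4 CPM in Chat- libraries. The values varied 4.85-fold within Chat+ alone, and the fold change of 0.88 had a 95% interval of 0.46 to 1.70. On the log2 scale it was -0.18, and -0.41 without Chat- replicate 4. P4ha1, a collagen prolyl hydroxylase, had 14.99, 26.2, 18.7, 24.7 and 17.5 CPM in Chat+ libraries, against 17.2, 16.5, 17.4, 18.3 and 14.7 CPM in Chat- libraries. It was high in 2 Chat+ libraries, replicates 2 and 4, and level elsewhere (log2 fold change 0.25, and 0.28 without Chat- replicate 4).

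Ero1l, an oxidase of the endoplasmic reticulum, had 36.6 ± 6.60 CPM in Chat+ cells, against 38.8 ± 15.9 CPM in Chat- cells, with a log2 fold change of -0.03 that was 0.19 without Chat- replicate 4. Mxi1, an antagonist of Myc, had 18.3 ± 2.72 CPM in Chat+ cells, against 21.1 ± 6.43 CPM in Chat- cells (log2 fold change -0.17, and -0.01 without Chat- replicate 4). Kdm3a, a histone demethylase, had 85.1 ± 16.4 CPM in Chat+ cells, against 90.3 ± 10.9 CPM in Chat- cells (log2 fold change -0.10, and -0.05 without Chat- replicate 4). For Ero1l and Kdm3a the difference was smaller than the SD of either group. For Mxi1 it was smaller than the Chat- SD but not than the Chat+ SD. The Chat- SD of Mxi1 without Chat- replicate 4 was 2.12 CPM. Ankrd37, a HIF target of little known function, had 24.6 ± 6.17 CPM in Chat+ cells, against 22.6 ± 6.87 CPM in Chat- cells (log2 fold change 0.14, and -0.05 without Chat- replicate 4).

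The pentose phosphate genes were likewise close. G6pdx, the gene of glucose-6-phosphate dehydrogenase, which sets the flow into the pathway, had 42.2, 41.1, 33.8, 42.2 and 62.3 CPM in Chat+ libraries, against 42.2, 39.7, 35.6, 29.6 and 47.6 CPM in Chat- libraries. As for Gapdh, the libraries numbered 5 were the highest of each group, and the log2 fold change was 0.17 (0.08 without Chat- replicate 4). Pgd, the next NADPH-yielding enzyme, had 73.3 ± 16.3 CPM in Chat+ cells, against 77.8 ± 14.7 CPM in Chat- cells (log2 fold change -0.09, and -0.23 without Chat- replicate 4). Tkt and Taldo1, which return carbon to glycolysis, had 173 ± 26.7 and 173 ± 14.7 CPM in Chat+, against 166 ± 24.7 and 162 ± 33.5 CPM in Chat-, with log2 fold changes of 0.06 for Tkt and 0.12 for Taldo1 (-0.04 and -0.03 without Chat- replicate 4). Without Chat- replicate 4, 3 of these 4 genes were lower in Chat+ by sign.

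For the glycolytic enzymes, wider differences than those between the groups lay between Chat- replicate 4 and the other Chat- libraries. Of the 16 glycolytic enzymes (lactate dehydrogenases included), 14 were lower in Chat- replicate 4 than in the geometric mean of the other 4 Chat- libraries, with a median log2 difference of -0.68. The same median over all listed genes was -0.14, with 57.1% lower. All 4 pentose phosphate genes were lower there as well (median -0.59). It was the lowest of the 10 libraries for 17 of 34 members, 11 of them glycolytic enzymes, where it was the lowest for 31.6% of all listed genes. The largest shortfall was that of Pfkl, at 25.2 CPM or 0.294 times the mean of the other Chat- libraries, and Aldoc was at 0.353, Tpi1 at 0.522, Ldha at 0.524 and Hk1 at 0.537 times that mean. Aldoa and Pgam1 did not follow, at 0.941 and 1.03 times.

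The hypoxia group went the other way for 7 of its 11 genes, with a median log2 difference of 0.23 between Chat- replicate 4 and the other Chat- libraries. Chat- replicate 4 was the highest of the 10 libraries for 6 of 34 members, a smaller share than the 22.1% of all listed genes. These were Hif1a, Bnip3, Bnip3l, Mxi1 and Ero1l of the hypoxia group, and Ldhb of the glycolytic enzymes. Ero1l reached 67.3 CPM there, 2.12 times the mean of the other Chat- libraries, Bnip3 1.88 times, Mxi1 1.75 times and Hif1a 1.72 times. Other hypoxia targets were low in the same library, with Ankrd37 at 0.495 and Ddit4 at 0.408 times the mean of the others, and Egln3 was listed at 0.

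Summed over the 16 glycolytic enzymes, Chat- replicate 4 had 1662 CPM, against 2319 to 2749 CPM in the other Chat- libraries and 2207 to 2703 CPM in Chat+ libraries. The 4 pentose phosphate genes summed to 311 CPM there, against 457 to 494 CPM in the other Chat- libraries. The 11 hypoxia genes summed to 671 CPM, against 492 to 590.0 CPM in the other Chat- libraries. The share of mitochondrially encoded transcripts and the macrophage and stromal marker sums of this library, given above, moved with these values, and their part in the result was not tested. Among the other libraries, Chat+ replicate 5 (3.85% mitochondrial) and Chat- replicate 5 (3.68%) had the highest glycolytic sums of their groups, 2703 CPM and 2749 CPM. Chat+ replicate 3 (3.45% mitochondrial) lay lowest among the Chat+ libraries in the glycolytic sum (2207 CPM) and in the pentose phosphate sum (376 CPM). A link between these shares and sums was not tested.

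**Figure D4:**
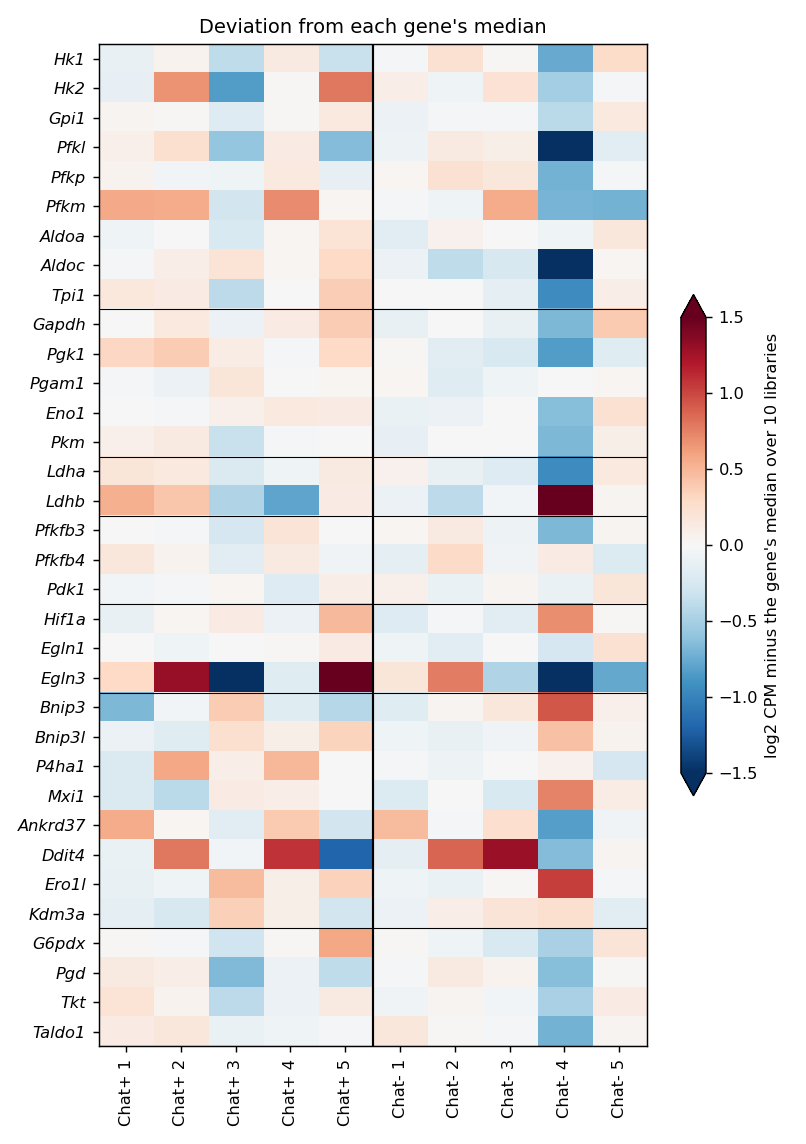
Log2 CPM of each gene minus its median over the 10 libraries (color, red above and blue below the median, scale ending at 1.5 in either direction), with Chat+ libraries left of the line and Chat- libraries right of it. The column of Chat- replicate 4 is blue for most glycolytic and pentose phosphate genes and red for Ldhb, Hif1a, Bnip3, Bnip3l, Mxi1 and Ero1l.

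**Figure D5:**
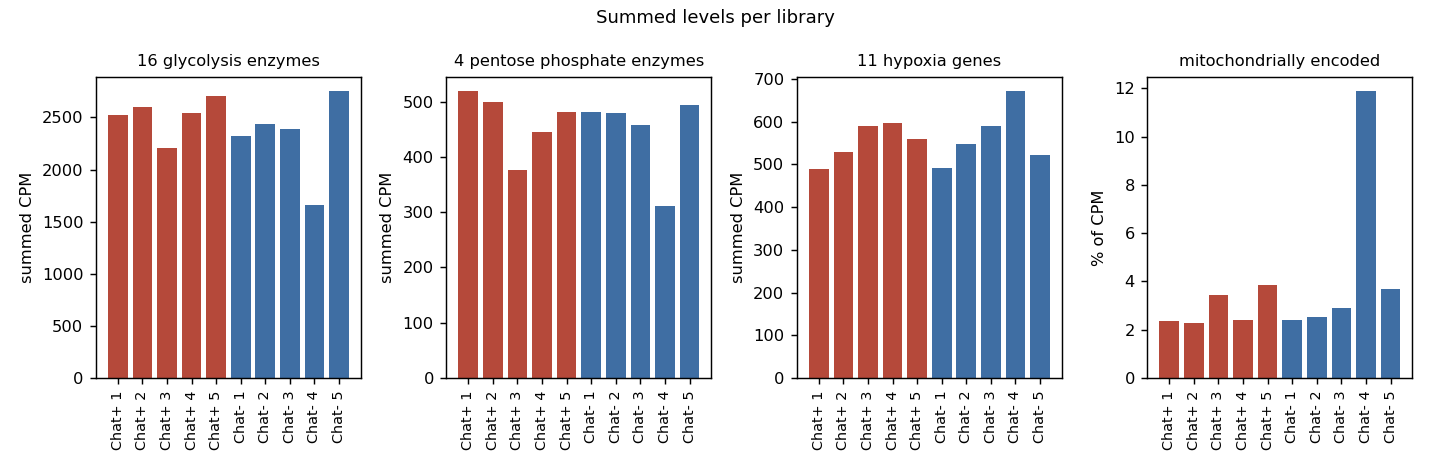
Summed CPM of the glycolytic enzymes, the pentose phosphate genes and the hypoxia genes, and the percent of CPM from mitochondrially encoded genes, in each Chat+ (red) and Chat- (blue) library. Chat- replicate 4 has the lowest glycolytic sum, 1662 CPM, and the highest mitochondrial share, 11.9%.

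Genes of HIF-1 targets are known for the letters ACGTG near their start, a form of the core of the hypoxia response element. Promoter windows of 250 bases before the RefSeq start (GRCm38.p6) were searched for ACGTG on both strands, and 33 of 34 members matched the promoter table, Ero1l under its newer symbol Ero1a. The letters occurred in 21 of 51 member windows (41.2%), against 16.6% of all 32851 windows of the table and 21.0% of the windows of listed genes. Of 14 windows of the hypoxia group 10 held them, and of 27 windows of glycolytic enzymes 9. The palindrome CACGTG, the E-box that Myc family proteins and other factors bind, contains ACGTG on both strands and occurred in 9.8% of member windows, in 6.02% of all windows and in 7.96% of the windows of listed genes. The windows of 3 genes are shown because their genes carry the results above, Pgk1 with the smallest p between the groups, Ldha as a gene low in Chat- replicate 4 and Bnip3 as one high there. They lie at chrX:106186850-106187099 on the plus strand, chr7:46845554-46845803 on the plus strand and chr7:138909507-138909756 on the minus strand, and capitals mark each ACGTG or its complement CACGT.
Pgk1: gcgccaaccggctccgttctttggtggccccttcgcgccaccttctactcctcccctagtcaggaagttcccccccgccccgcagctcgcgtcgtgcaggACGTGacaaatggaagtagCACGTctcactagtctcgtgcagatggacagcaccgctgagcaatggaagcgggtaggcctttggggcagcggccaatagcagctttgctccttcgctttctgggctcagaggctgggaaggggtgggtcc
Ldha: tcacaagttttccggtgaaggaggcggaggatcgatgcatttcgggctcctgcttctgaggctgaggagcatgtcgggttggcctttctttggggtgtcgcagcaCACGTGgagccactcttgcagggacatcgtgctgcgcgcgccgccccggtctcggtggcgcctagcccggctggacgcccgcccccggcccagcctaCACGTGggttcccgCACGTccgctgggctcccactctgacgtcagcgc
Bnip3: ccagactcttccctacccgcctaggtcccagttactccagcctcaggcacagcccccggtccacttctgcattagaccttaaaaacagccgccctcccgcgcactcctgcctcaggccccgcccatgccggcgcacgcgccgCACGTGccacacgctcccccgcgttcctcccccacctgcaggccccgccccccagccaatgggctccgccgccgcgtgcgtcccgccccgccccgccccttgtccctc
The Pgk1 window held the letters once on each strand, and that of Bnip3 held 1 copy of CACGTG. The Ldha window shown held 2 copies of CACGTG and a further CACGT, while another Ldha window (chr7:46846832-46847081) held no match. Pfkl and Aldoc, the glycolytic genes most reduced in Chat- replicate 4, had no ACGTG in their windows. GCGTG, another form of the core, occurs in windows of both genes but was not part of the search. Letters outside the 250 bases were not searched, and any part of the letters in the levels of that library was not tested.

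Other genes of the same pathways were counted in the same way, beside 57% of listed genes higher and 4.51% at an unadjusted p under 0.05 (49.6% and 7.32% without Chat- replicate 4). Of 27 listed further genes of glycolysis and pyruvate use, 13 were higher and 14 lower in Chat+ by sign, 1 had an unadjusted p under 0.05 and 0 passed (limma), and without Chat- replicate 4 12 were higher and 15 lower. The smallest p were those of Pklr, the liver and red cell pyruvate kinase, at 1.27 ± 0.595 CPM in Chat+ cells, against 0.483 ± 0.481 CPM in Chat- cells (log2 fold change 1.59, and 1.11 without Chat- replicate 4; limma adjusted p = 0.999 with all libraries), and Mpc2, a mitochondrial pyruvate carrier, at 25.9 ± 3.72 CPM in Chat+ cells, against 21.3 ± 3.81 CPM in Chat- cells (log2 fold change 0.29, and 0.18 without Chat- replicate 4). Pklr lay near the limit of the table and was listed at 0 in Chat- replicate 4.

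Of 13 further pentose phosphate and linked genes, 9 were higher by sign, 0 had an unadjusted p under 0.05 and 0 passed. The majority turned without Chat- replicate 4, with 5 higher, 8 lower and 1 at an unadjusted p under 0.05. With all libraries the smallest p were those of Prps1, which makes the nucleotide precursor PRPP, at 37.1 ± 2.16 CPM in Chat+ cells, against 30.8 ± 7.85 CPM in Chat- cells (log2 fold change 0.31, and 0.13 without Chat- replicate 4), and Shpk, a sedoheptulose kinase, at 5.24 ± 1.92 CPM in Chat+ cells, against 6.69 ± 1.04 CPM in Chat- cells (log2 fold change -0.40, and -0.38 without Chat- replicate 4). Of 33 further hypoxia genes, 18 were higher by sign, 1 (Ndrg1) had an unadjusted p under 0.05 and 0 passed. This split turned as well without Chat- replicate 4, with 14 higher, 19 lower and 4 at an unadjusted p under 0.05. Ndrg1, a hypoxia-induced differentiation gene, had 6.89 ± 1.85 CPM in Chat+ cells, against 9.97 ± 1.72 CPM in Chat- cells (log2 fold change -0.56, and -0.65 without Chat- replicate 4; limma adjusted p = 0.999 with all libraries), and Slc16a3, a lactate exporter, had 1.24 ± 0.646 CPM in Chat+ cells, against 0.478 ± 0.183 CPM in Chat- cells (log2 fold change 1.11, and 1.15 without Chat- replicate 4).

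Among 15 listed regulators linked to mTORC1 and Myc, 11 were higher by sign, 1 (Myc) had an unadjusted p under 0.05 and 0 passed, and without Chat- replicate 4 9 were higher and 2 had an unadjusted p under 0.05. Myc, which drives glycolytic genes in growing cells, had 62.6, 52.1, 49.2, 50.5 and 95.4 CPM in Chat+ libraries, against 41.7, 39.5, 40.1, 28.7 and 53.7 CPM in Chat- libraries. Chat- replicate 5 alone reached into the Chat+ range, and Myc did not pass (log2 fold change 0.58, and 0.46 without Chat- replicate 4; limma adjusted p = 0.87 with all libraries). Rheb, the activator of mTORC1, had 61.8 ± 10.1 CPM in Chat+ cells, against 51.2 ± 4.92 CPM in Chat- cells (log2 fold change 0.26, and 0.20 without Chat- replicate 4). Of 22 proliferation genes, 21 were higher in Chat+ by sign and 15 had an unadjusted p under 0.05, while 0 passed over all listed genes, and without Chat- replicate 4 these counts were 19, 15 and 0. The smallest p were those of Mki67, a marker of cycling cells, at 111 ± 28.9 CPM in Chat+ cells, against 45.8 ± 8.81 CPM in Chat- cells (log2 fold change 1.25, and 1.197 without Chat- replicate 4; limma adjusted p = 0.087 with all libraries), and Nusap1, a spindle protein, at 22.9 ± 5.85 CPM in Chat+ cells, against 8.77 ± 1.85 CPM in Chat- cells (log2 fold change 1.35, and 1.29 without Chat- replicate 4; limma adjusted p = 0.11 with all libraries). The median log2 fold change of the glycolytic enzymes was 0.17 with all libraries and 0.05 without Chat- replicate 4, while that of the proliferation genes was 0.93 and 0.88.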

How the data were processed

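RNA of sorted Chat+ and Chat- mature B cells was made into libraries with a directional kit, per the labels' protocols. The submitters' processing notes name cutadapt 2.6, Salmon 0.14.2 and build GRCm38.p6. How strand was set and which tool computed CPM is not given in the sources used here. The deposited values, made by the authors, are log2(CPM + 0.1148) (log2 scale), since 2 to the value minus this offset sums to 1000000 in each library. Whole multiples of 1 read (within 0.01) made up 33.3% to 47.5% of values under 3 CPM, so whole reads were not recovered and no count model was run. Each listed gene reached at least 10.2 estimated reads in 5 or more libraries, and all 34 members are listed. Depth was estimated from these steps (mean 26130000 reads).

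limma 3.58.1 in R 4.3.3 (lmFit, eBayes with a mean-variance trend, group as the only term) was run on the deposited log2 values of all 14450 genes, with two-sided p and Benjamini-Hochberg adjustment at 0.05. The offset pulls fold changes of low genes toward 0. The test was checked on simulated data. Pairs of genes were compared with exact permutation tests. The members, roles, pairs and further lists were chosen with earlier results of these data known. Every member is named, and of each further list the 2 genes with the smallest p. Symbols were matched for 14374 genes, and coordinates and lengths come from GENCODE M21 (GRCm38). Shared sequence was counted in 31-base words of the GENCODE transcripts. Tables were made with pandas 2.3.3 and numpy 2.4.6 in Python 3.11.15, figures with matplotlib 3.10.9.

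Alternatives were median scaling, log2(CPM + 1), a mean of at least 1 CPM, no trend, library quality weights, the replicate number as a block, and leaving out each library. One marker of the B cell list is not reported here and was left out of its sum.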

Additional observations from a re-analysis of the deposited data

Results flagged for a closer look

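Of 82 groups of 5 values (34 genes and 7 ratios in each of 2 groups), 17 held a library whose gap to the nearest other exceeded 0.71 of the whole range, where chance gives about 1 in 20 groups (4.1 here). In 16 of the 17 that library was Chat- replicate 4, and the values of one library are not independent of each other. It was set apart as the lowest Chat- library for Hk1 (39.0 CPM), Pfkl (25.2 CPM), Pfkp (41.3 CPM), Aldoc (3.21 CPM), Tpi1 (35.8 CPM), Pgk1 (51.5 CPM) and Pkm (238 CPM). The same held for Pfkfb3 (24.7 CPM), Pgd (52.2 CPM), Tkt (124 CPM) and Taldo1 (104 CPM). It was set apart as the highest Chat- library for Ldhb (3.25 CPM), Hif1a (168 CPM) and Ero1l (67.3 CPM), and in the log2 ratios of Pfkp to Pfkl (0.71) and of Ldhb to Ldha (-4.88). The remaining one was the log2 ratio of Aldoc to Aldoa in Chat+ replicate 3 (-4.57), the highest of the Chat+ libraries.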

How the results depend on the processing

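No member passed the adjusted threshold under any of the 17 alternatives. Of 577 member values under them, 528 kept direction and call and 49 changed sign, in 17 members. The smallest adjusted p of a member was 0.058, that of Pgk1 with the replicate number as a block and both libraries numbered 4 left out, and its log2 fold change stayed between 0.35 and 0.57.

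The number of listed genes past the threshold was 1 in the main test, 3 without the trend, 105 with library quality weights, and 1 to 6 with 1 library left out. With the replicate block it was 6, and 89 with the block and without both libraries numbered 4. Among members, the number higher in Chat+ by sign was 19 to 25 with 1 library left out. Same-numbered libraries were not shown to be pairs (correlations of their deviations were -0.21 to 0.27 over 12904 genes), although 3 of 5 Chat+ libraries correlated best with their own number, and the block changed no call of a member. The causes of these changes were not tested.

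Signs that changed with the quality weights, which give Chat- replicate 4 the lowest weight (0.13), were those of Pfkl (-0.0039), Pfkp (-0.088), Ldhb (0.067) and Ero1l (0.082). With median scaling they were those of Pfkfb4 (-0.017), Hif1a (-0.032) and Bnip3l (-0.020); this scaling moved Chat- replicate 4 by 0.11 (log2) and left 21 members higher. With the block and without both libraries numbered 4 they were those of Pfkl (-0.22), Pfkp (-0.14), Pkm (-0.022), Ldhb (0.28), Pfkfb3 (-0.096), Ankrd37 (-0.12), Ero1l (0.20), Tkt (-0.020) and Taldo1 (-0.010). With 1 library left out, log2 fold changes ranged from -0.26 to 0.0037 for Hk1, from -0.013 to 0.39 for Hk2, from -0.15 to 0.32 for Pfkl, from -0.10 to 0.13 for Pfkp, from -0.067 to 0.043 for Aldoa, from -0.020 to 0.19 for Pkm, from -0.39 to 0.086 for Ldhb, from -0.045 to 0.16 for Pfkfb3, from -0.024 to 0.098 for Pfkfb4, from -0.086 to 0.17 for Hif1a, from -0.039 to 0.12 for Bnip3l, from -0.054 to 0.27 for Ankrd37, from -0.42 to 0.15 for Ddit4, from -0.11 to 0.19 for Ero1l, from -0.23 to 0.030 for Pgd, from -0.037 to 0.16 for Tkt, from -0.031 to 0.19 for Taldo1. Differences in log2 ratio ranged from -0.23 to 0.050 for Pfkp over Pfkl, from -0.66 to 0.026 for Ldhb over Ldha, from -0.16 to 0.10 for Pfkfb4 over Pfkfb3. With the longest transcript in place of the mean, chosen as an alternative after seeing the data, 12 of 33 levels per length moved by over 1.5-fold. Counting error alone is not known, since whole reads could not be recovered.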
